A study of Homo sapiens with 5 samples.

Results

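The 10 genes described here, ACLY, ACACA, FASN, ELOVL1, ELOVL5, ELOVL6, SCD, FADS1, FADS2 and ACSL3, encode enzymes that build, lengthen, desaturate and activate fatty acids. They were taken by symbol from a table of 57221 rows, where each stood on its own row, and all 10 passed the filter on low counts among 13075 tested genes. RNA was sequenced from NK92MI cells, an established human line of natural killer (NK) cells in which an added IL2 gene removes the need for interleukin 2 in the medium. In the 3 UNC1999 libraries the cells had been treated with 10 µM of this inhibitor of EZH2 and EZH1 for 48 h, and in the 2 DMSO libraries they had received the solvent. EZH2 and EZH1 are the enzymes that methylate lysine 27 of histone H3. Cells of both groups were grown in serum-containing medium, and serum carries fatty acids and sterols. The labels do not say whether the libraries stem from separate cultures, and p-values measure the spread between these libraries only, which may be technical.

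Fatty acid synthesis starts in the cytosol, where ACLY splits citrate into acetyl-CoA, ACACA carboxylates acetyl-CoA to malonyl-CoA and FASN joins these units into palmitate. ELOVL enzymes of the endoplasmic reticulum lengthen the chain, SCD places a double bond in saturated chains, FADS2 and FADS1 act in turn on polyunsaturated chains, and ACSL3 couples fatty acids to coenzyme A for use in complex lipids and lipid droplets. Transcription of many of these genes is controlled by the SREBP factors, which are released from the endoplasmic reticulum when sterols are low, and by the liver X receptors. Proliferating lymphocytes are known to raise this pathway for membrane growth.

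The libraries held 8644161, 8718661 and 8687863 counts in UNC1999, and 8442908 and 8748106 in DMSO. UNC1999 replicate 2 stood apart: the chi-square statistic per degree of freedom was 7.47 against UNC1999 replicate 1 and 8.77 against UNC1999 replicate 3, while those libraries gave 1.81 against each other and the DMSO libraries 3.14. Of 15 NK cell markers, 14 were tested, and their summed counts were 68842 to 71961 in UNC1999 and 65320 to 69962 in DMSO. EOMES was lower and CD7 higher among them, and NCR3 was listed at 0. With the offsets for GC content and length described below, 2 of the 14 were higher (CD7 and PRF1) and 4 lower (EOMES, KLRD1, KLRC1 and GZMA). The 7 fibroblast and epithelial markers summed to 1 count in each UNC1999 library and to 0 and 1 in DMSO. The 6 myeloid markers summed to 892 to 1191 in UNC1999 and 850 to 935 in DMSO, mostly ITGAX, which NK cells also express. The 9 T cell markers summed to 5599 to 6185 in UNC1999 and 5475 to 5993 in DMSO. That sum came mostly from CD3E, with CD3D, CD3G, CD4 and CD8B listed at 0; CD6 and TRAT1 were higher, and with offsets CD6 and CD3E. The 5 B cell markers summed to 153 to 225 in UNC1999 and 200 to 206 in DMSO, mostly PAX5, with MS4A1 listed at 0. A listed 0 does not show that a gene is silent, given the region around ACACA described below. The part of any such marker in the results was not tested.

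Promoter sequence is shown for ELOVL6 and SCD, the 2 members that stayed called in opposite directions after the correction for GC content described below, and for ACLY, the enzyme at the start of the pathway. The stretches come from the 250 bases before the RefSeq start of transcription (build GRCh38.p14), read 5′ to 3′ on the gene's strand, and leave out bases that GENCODE 29 places in an exon of the gene. They are chr4:110198677-110198841 on the minus strand (ELOVL6, 226 to 62 bases before the start), chr10:100346983-100347123 on the plus strand (SCD, 250 to 110 bases before the start) and chr17:41919023-41919272 on the minus strand (ACLY, 250 to 1 bases before the start). Capitals mark CCAAT or its reverse complement ATTGG, the letters bound by the factor NF-Y, and GGGCGG or its reverse complement CCGCCC, the GC box bound by SP1. None of the marked letters overlap in these 3 stretches. The bases left out of the SCD stretch hold 2 GC boxes, 33 and 11 bases before the start, so the stretch itself shows none. The ELOVL6 and ACLY stretches lie inside the GENCODE 29 span of their gene, between exons, because some transcripts start further upstream, and the SCD stretch lies before its gene.
ELOVL6: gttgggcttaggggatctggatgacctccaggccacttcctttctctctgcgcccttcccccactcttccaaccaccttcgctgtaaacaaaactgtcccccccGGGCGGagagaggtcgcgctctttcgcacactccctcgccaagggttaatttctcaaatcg
SCD: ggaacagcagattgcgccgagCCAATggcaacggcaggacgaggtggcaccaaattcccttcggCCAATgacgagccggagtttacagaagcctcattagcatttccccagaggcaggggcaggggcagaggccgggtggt
ACLY: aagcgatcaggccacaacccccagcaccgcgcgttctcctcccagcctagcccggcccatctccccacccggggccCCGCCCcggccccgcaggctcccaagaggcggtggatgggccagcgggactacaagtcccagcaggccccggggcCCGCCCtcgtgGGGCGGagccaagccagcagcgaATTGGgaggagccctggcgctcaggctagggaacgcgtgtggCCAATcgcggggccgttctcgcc

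Such RefSeq windows were at hand for 9 of the 10 members, in 13 windows, and FASN had none. CCAAT, on either strand, was in at least 1 window of 6 of these 9 members, and in 32.0% of all 35116 promoter windows. GGGCGG was in at least 1 window of 8 members, and in 42.6% of all windows. The palindrome CACGTG, an E-box, was found in 1 member, ELOVL5, and in 6.34% of all windows. CACCCCA, the core of the sterol regulatory element, was in 0 of the 9 members and in 2459 of all windows. Members with several windows had more chances of a match, so these shares are not on the same footing, and they describe letters in these windows only.

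With UNC1999, ELOVL6, ACSL3 and FASN were higher and FADS1, SCD and ACLY were lower, while ELOVL1, ELOVL5, FADS2 and ACACA were not called. A gene was called when its p, adjusted by the Benjamini-Hochberg method over all 13075 genes in edgeR's quasi-likelihood test, was below 0.05. Thus 3 members were called higher, against 15.7% of all tested genes, and 3 lower, against 19.5% of all tested genes. In either direction 6 members were called, against 35.2% of all tested genes. The median log2 fold change was -0.07 over the members and -0.01 over all tested genes. In 2 members every UNC1999 library lay above both DMSO libraries, as in 24.2% of all tested genes, and in 4 members every UNC1999 library lay below them, as in 30.4%. Groups that did not overlap were thus seen in 6 members and in 54.6% of all tested genes. All 6 called members changed by less than 2-fold, and the 6 ran from a 1.84-fold level for ELOVL6 to a 0.653-fold level for FADS1. With 10 members no statement about the list as a whole was tested. As in any bulk sample, fewer cells of a type and less RNA per cell cannot be told apart.

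**Figure D1:**
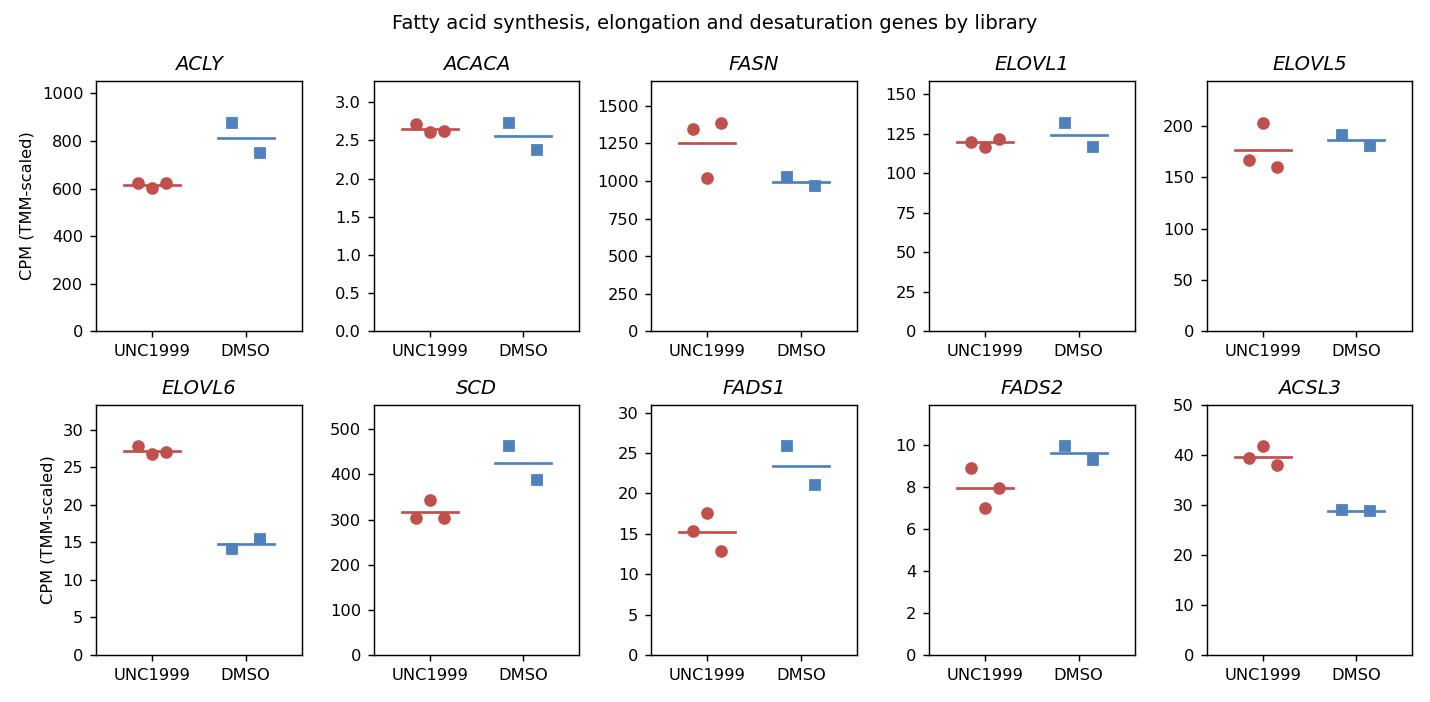
Each panel shows 1 gene; the vertical axis is CPM (counts scaled to a common library total) from 0, points are libraries and horizontal lines group means, with UNC1999 (circles, n = 3) left of DMSO (squares, n = 2). ELOVL6 and ACSL3 were higher in every UNC1999 library, ACLY, SCD, FADS1 and FADS2 were lower in every one, and for FASN UNC1999 replicate 2, at 1017 CPM, lay between the DMSO libraries at 1025 and 967 CPM.

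The fold changes of all genes followed GC content, and the members' fold changes were set beside that trend. For 11019 annotated genes divided into 10 equal classes by GC content, the class medians ran from 0.44 (log2) at the lowest GC content through -0.36 in the sixth class to 0.17 at the highest. ACSL3, with 38.1% GC, stood at 0.46 in a class whose median was 0.44. FASN, with 65.3% GC, stood at 0.33 in a class whose median was 0.17. The 3 lower members lay in classes with negative medians: SCD (47.1% GC) at -0.42 against -0.30, FADS1 (50.1% GC) at -0.62 against -0.36, and ACLY (52.2% GC) at -0.40 against -0.28. ELOVL6 (41.2% GC), at 0.88, and ELOVL5 (41.7% GC), at -0.08, lay in the same class, with a median of 0.19.

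**Figure D2:**
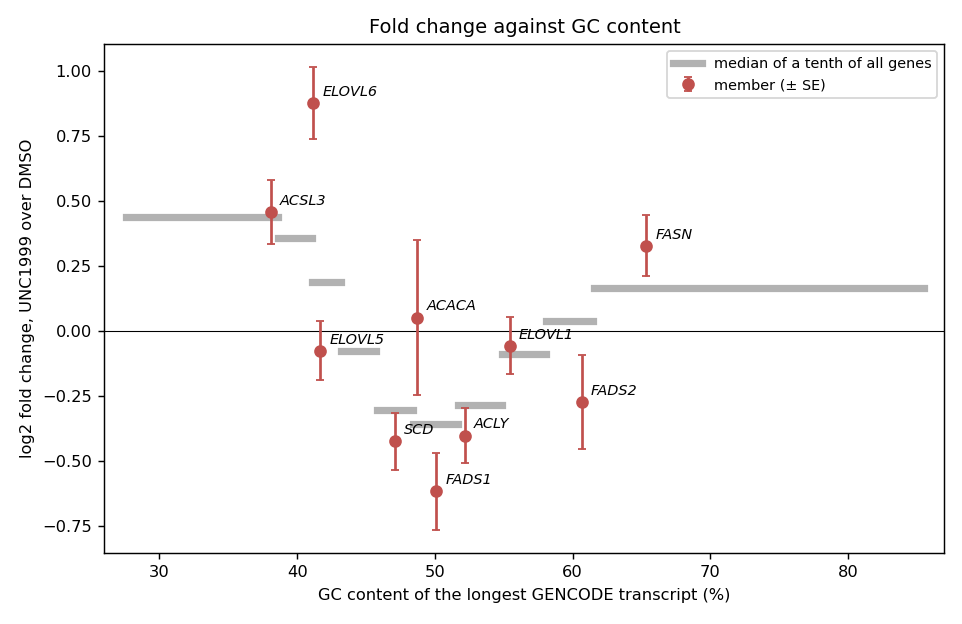
The horizontal axis is the GC content (%) of the longest GENCODE transcript and the vertical axis the log2 fold change of UNC1999 over DMSO; grey bars are medians of 10 equal classes of 11019 genes and red points the 10 members (± SE). ACSL3 sits on the bar of its class at 0.44, and ELOVL6 lies above its bar at 0.19.

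A second fit removed each library's trend with GC content and transcript length by offsets, and called 33.5% of 11019 genes, 14.6% higher and 18.9% lower. In that fit 1 member was higher, ELOVL6, and 2 were lower, SCD and ELOVL5, so the counts of members called fell to 1 of 10 and 2 of 10. The calls of ACLY, FASN, FADS1 and ACSL3 were lost (edgeR adjusted p = 0.157, 0.788, 0.0578 and 0.894), and ELOVL5 gained a call. The offsets also remove any change that itself follows GC content or length, so the 2 fits are given side by side.

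**Figure D3:**
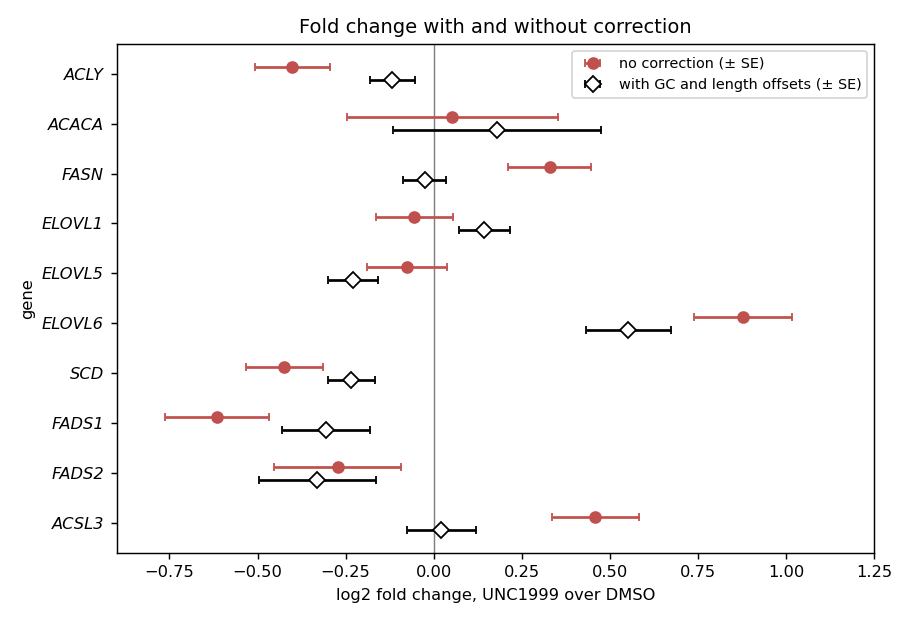
The horizontal axis is the log2 fold change of UNC1999 over DMSO for each member (rows, in the order of the pathway), without correction (filled circles) and with GC and length offsets (open diamonds), each ± SE. ELOVL6 stays right of 0 and SCD left of it in both fits, while FASN and ACSL3 lie at -0.03 and 0.02 with offsets.

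ACLY, which supplies cytosolic acetyl-CoA, had 622, 602 and 624 CPM in UNC1999, against 877 and 750.2 CPM in DMSO. All 3 UNC1999 libraries lay within a narrow band below both DMSO libraries, and the DMSO libraries differed more from each other than the UNC1999 libraries did. ACLY averaged 616.0 ± 12.4 CPM in UNC1999 and 813 ± 89.4 CPM in DMSO (SD, n = 3 and n = 2). The fitted log2 fold change was -0.40 (SE 0.11, edgeR adjusted p = 0.00306). Leaving out DMSO replicate 1 ended the call (log2 fold change -0.29, edgeR adjusted p = 0.181), and with offsets the value was -0.12. ACLY lies on chromosome 17 from 41866908 to 41930542 (GENCODE 29, GRCh38, minus strand), and an antisense gene shares 156 of its exon bases.

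FASN, the multi-domain synthase that makes palmitate, was the member with the most counts, 11936, 9333 and 12198 in UNC1999, against 8255 and 8133 in DMSO. Scaled by library total and TMM factor it had 1348, 1017 and 1388 CPM in UNC1999, against 1025 and 967 CPM in DMSO. UNC1999 replicates 1 and 3 were high, and replicate 2 lay within the range of the DMSO libraries, so the groups overlapped on that scale. The overlap rests on the TMM factors, which were 1.052 in UNC1999 replicate 2 and 0.954 and 0.961 in DMSO. Before them, that library had 9333 of 8718661 counts, against 8255 of 8442908 and 8133 of 8748106 in DMSO. The means were 1251 ± 203 CPM in UNC1999 and 996 ± 40.9 CPM in DMSO (SD, n = 3 and n = 2). The fitted log2 fold change was 0.33 (SE 0.12, edgeR adjusted p = 0.0265). UNC1999 replicate 2 also departed from the other UNC1999 libraries in other GC-rich genes: relative to the DMSO mean, the class of genes with the highest GC content had a median log2 CPM difference of 0.26 in replicate 1, -0.06 in replicate 2 and 0.29 in replicate 3. Whether this sets the FASN value of that library was not tested. Without UNC1999 replicate 2 the log2 fold change of FASN was 0.47 (edgeR adjusted p = 1.4e-06). Leaving out any other library ended the call, in the order of both DMSO libraries (replicates 1 and 2) and then UNC1999 replicates 1 and 3 (log2 fold change 0.37, 0.28, 0.28 and 0.25; edgeR adjusted p = 0.118, 0.232, 0.147 and 0.161). It was also lost with a replicate block (0.24, edgeR adjusted p = 0.178), and with offsets the value was -0.03. FASN lies on chromosome 17 from 82078333 to 82098332 (GRCh38, minus strand).

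ACACA, the carboxylase that commits acetyl-CoA to fatty acid synthesis, had only 24, 24 and 23 counts in UNC1999, against 22 and 20 in DMSO. The groups overlapped at 2.65 ± 0.0541 CPM in UNC1999 and 2.55 ± 0.250 CPM in DMSO (SD, n = 3 and n = 2), and the log2 fold change of 0.05 ± 0.30 (SE) missed the threshold (edgeR adjusted p = 0.911). The SE is about as large as the changes called in FASN and ACLY. The genes around ACACA were low in every library as well. Of 32 protein-coding genes within 1 Mb of it in GENCODE 29 (GRCh38 chromosome 17, 37084988 to 37406818), 27 had at most 4 counts in each library (84.4%), against 41.2% of 18762 protein-coding genes with an annotation. Of the 32, 11 are near-identical copies of TBC1D3, all among the low ones, and of the other 21 genes 16 were low. AATF, a gene needed for ribosome production in dividing cells, was listed at 0 in all 5 libraries, as were MYO19, ZNHIT3 and DUSP14. Low counts thus extended over the region, and the counts of ACACA cannot be taken as its level in these cells. The cause was not tested. For the other members the share of low neighbours ran from 16.9% (FASN) to 65.0% (ACLY). ACLY itself had 5485 to 7060 counts, so a high share alone does not show that a member's own counts are too low.

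**Figure D4:**
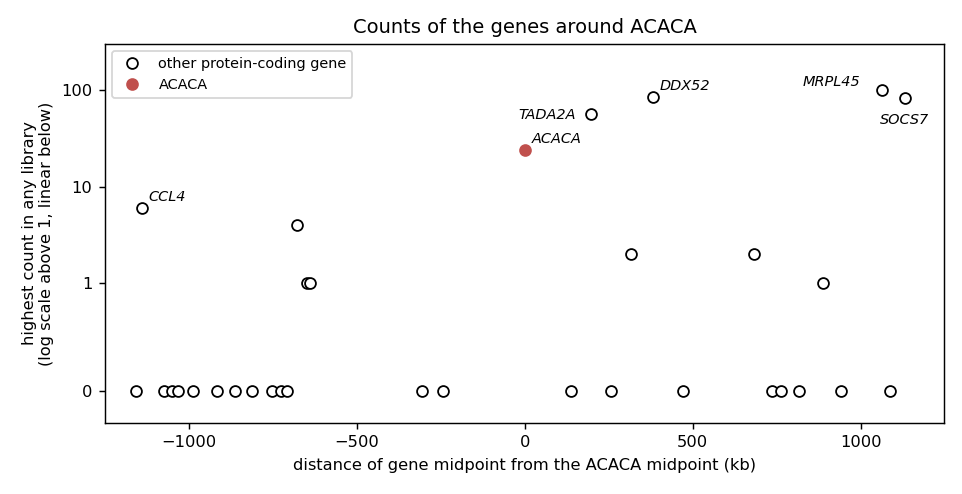
The horizontal axis is the distance (kb) of each protein-coding gene's midpoint from the ACACA midpoint in GRCh38, and the vertical axis its highest count in any of the 5 libraries (logarithmic above 1, linear below). ACACA (filled) has at most 24 counts, 27 of the 32 other genes have at most 4, and only CCL4, TADA2A, DDX52, MRPL45 and SOCS7 have more.

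ELOVL6, which lengthens saturated and monounsaturated chains of palmitate length, had the largest change of the 10. It had 27.8, 26.8 and 27.1 CPM in UNC1999, against 14.2 and 15.5 CPM in DMSO. The UNC1999 libraries lay close together and far above both DMSO libraries. ELOVL6 averaged 27.2 ± 0.498 CPM in UNC1999 and 14.8 ± 0.922 CPM in DMSO (SD, n = 3 and n = 2). The fitted log2 fold change was 0.88 (SE 0.14, edgeR adjusted p = 6.84e-06). By p it ranked 447 among all tested genes. The call held in all 18 alternatives, with log2 fold changes from 0.54 to 0.98, and was 0.55 (SE 0.12, edgeR adjusted p = 0.000464) with offsets. ELOVL6 lies on chromosome 4 from 110045846 to 110199199 (GRCh38, minus strand).

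The other elongases among the 10 were not called without offsets. ELOVL1, which makes very long saturated and monounsaturated chains, had 119.6, 116.7 and 121.7 CPM in UNC1999, against 131.9 and 116.3 CPM in DMSO. Its groups overlapped, and a log2 value of -0.06 (SE 0.11, edgeR adjusted p = 0.733) turned to 0.05 without normalization factors and to 0.14 with offsets. ELOVL5, which lengthens polyunsaturated chains, had 166.8, 203 and 159.9 CPM in UNC1999, against 191.7 and 180.6 CPM in DMSO. UNC1999 replicate 2 was the highest and replicate 3 the lowest of the 5 libraries, and the log2 fold change was -0.08 (SE 0.11, edgeR adjusted p = 0.65). With offsets ELOVL5 was called lower at -0.23 (SE 0.07, edgeR adjusted p = 0.0111). GC offsets without length, a fit added after the data were seen, also called it lower (-0.30, edgeR adjusted p = 0.00283). The call was absent when a replicate block was added to the GC and length offsets (edgeR adjusted p = 0.0841), in a fit that lacks UNC1999 replicate 3. The ratio of ELOVL6 to ELOVL1 counts, in which library scaling cancels, was 0.232, 0.230 and 0.222 in UNC1999, against 0.107 and 0.133 in DMSO. The ratio of ELOVL6 to ELOVL5, genes of nearly equal GC content, was 0.167, 0.132 and 0.169 in UNC1999, against 0.0738 and 0.0856 in DMSO. Both ratios were higher in every UNC1999 library. ELOVL6 was itself called higher in these same libraries, so this separation is no evidence beyond that call. With 3 and 2 libraries an exact two-sided permutation test cannot go below p = 0.2, which each ratio reached (7 ratios were computed). From the fitted values, the log2 change of ELOVL6 to ELOVL1 was 0.93 without offsets and 0.41 with them, and that of ELOVL6 to ELOVL5 0.95 without and 0.78 with offsets.

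SCD, the delta-9 desaturase that makes oleate from stearate, had 302.5, 343 and 303.7 CPM in UNC1999, against 462 and 387 CPM in DMSO. Every UNC1999 library lay below both DMSO libraries, with UNC1999 replicate 2 the nearest to them. Its means were 317 ± 23.2 CPM in UNC1999 and 425 ± 53.1 CPM in DMSO (SD, n = 3 and n = 2). The fitted log2 fold change was -0.42 (SE 0.11, edgeR adjusted p = 0.00249). Of 18 alternatives, only the fit without DMSO replicate 1 lost the call (-0.29, edgeR adjusted p = 0.184). With offsets SCD was at -0.23 (SE 0.07, edgeR adjusted p = 0.00579), a smaller value that was still called. SCD lies on chromosome 10 from 100347124 to 100364834 (GRCh38, plus strand).

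FADS1, the delta-5 desaturase, fell the most of the 10. It had 15.4, 17.5 and 12.9 CPM in UNC1999, against 25.8 and 21.0 CPM in DMSO. All UNC1999 libraries were below both DMSO libraries, at 15.3 ± 2.35 CPM in UNC1999 and 23.4 ± 3.38 CPM in DMSO (SD, n = 3 and n = 2). The log2 fold change was -0.62 (SE 0.15, edgeR adjusted p = 0.00115). Leaving out DMSO replicate 1 ended the call (-0.47, edgeR adjusted p = 0.0784), as did the offsets (-0.31, edgeR adjusted p = 0.0578). FADS2, the delta-6 desaturase that acts before FADS1, had 79, 64 and 70 counts in UNC1999, against 80 and 78 in DMSO, or 7.95 ± 0.972 CPM in UNC1999 and 9.60 ± 0.466 CPM in DMSO (SD, n = 3 and n = 2). Each UNC1999 library lay below both DMSO libraries after scaling, but the log2 fold change of -0.27 ± 0.18 (SE) missed the threshold (edgeR adjusted p = 0.25). With offsets FADS2 had -0.33 ± 0.17 and FADS1 -0.31 ± 0.13 (SE), values that differ by less than either SE. The count ratio of FADS1 to FADS2 was 1.72, 2.52 and 1.61 in UNC1999, against 2.60 and 2.27 in DMSO, and the groups overlapped (exact two-sided permutation p = 0.4). In GENCODE 29 the genes overlap on opposite strands of chromosome 11 (FADS1 61799625 to 61829318, FADS2 61792980 to 61867354) and share 490 exon bases, and FEN1 shares 49 exon bases with FADS2. No source used here gives the strand setting of the counting, so reads in the shared bases cannot be assigned to one gene.

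ACSL3, an acyl-CoA synthetase of the endoplasmic reticulum and lipid droplets, had 39.4, 41.7 and 38.0 CPM in UNC1999, against 29.1 and 28.8 CPM in DMSO. Every UNC1999 library was above both DMSO libraries, which were nearly equal. Means of 39.7 ± 1.89 CPM in UNC1999 and 28.9 ± 0.197 CPM in DMSO (SD, n = 3 and n = 2) corresponded to 0.46 on the log2 scale (SE 0.12, edgeR adjusted p = 0.00365). Leaving out DMSO replicate 1 or DMSO replicate 2 ended the call at almost the same value (0.46 and 0.45; edgeR adjusted p = 0.0522 and 0.0555). With offsets the value was 0.02 ± 0.10 (SE). ACSL3 lies on chromosome 2 from 222860934 to 222944639 (GRCh38, plus strand), and an antisense gene shares 102 of its exon bases.

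Levels of different genes were compared as CPM per kilobase of the longest GENCODE transcript. FASN and ACLY were the highest of the 10, with FASN at 146.1 ± 23.7 and ACLY at 142.0 ± 2.86 CPM per kb in UNC1999, and FASN at 116.3 ± 4.78 and ACLY at 187.5 ± 20.6 CPM per kb in DMSO (SD, n = 3 and n = 2). ACLY was thus above FASN in both DMSO libraries, while in UNC1999 the genes did not differ beyond their spread, with FASN higher in replicates 1 and 3 and ACLY higher in replicate 2. ELOVL1, ELOVL5 and SCD formed a middle group, at 73.5 ± 1.54, 57.3 ± 7.57 and 59.0 ± 4.34 CPM per kb in UNC1999, and at 76.4 ± 6.78, 60.4 ± 2.54 and 79.2 ± 9.90 CPM per kb in DMSO. SCD lay above ELOVL1 in DMSO replicate 1 (86.2 against 81.1 CPM per kb) and in DMSO replicate 2 (72.2 against 71.6 CPM per kb). Their DMSO means did not differ beyond the spread. In every UNC1999 library SCD lay below ELOVL1. ACSL3, ELOVL6, FADS1 and FADS2 were far lower, at 6.99 ± 0.333, 4.22 ± 0.0772, 3.37 ± 0.519 and 2.19 ± 0.268 CPM per kb in UNC1999, and at 5.09 ± 0.0347, 2.29 ± 0.143, 5.18 ± 0.747 and 2.65 ± 0.128 CPM per kb in DMSO. In this group ELOVL6 was above FADS1 in all UNC1999 libraries and below it in both DMSO libraries. These levels are not corrected for GC content. It was 41.2% in ELOVL6, 50.1% in FADS1, 65.3% in FASN, 52.2% in ACLY, 47.1% in SCD and 55.4% in ELOVL1. With offsets the log2 fold change was 0.55 for ELOVL6 and -0.31 for FADS1, against 0.88 and -0.62 without. For FASN to ACLY the log2 change was 0.09 with offsets and 0.73 without. Whether any of these orders changes between the groups with offsets was not tested.

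The summed counts of the 10 genes did not separate the groups, while the shares of FASN and ACLY within them, which are not corrected for GC content, did. The 10 genes together took 0.272%, 0.250% and 0.272% of all counts in UNC1999, and 0.264% and 0.238% in DMSO. Of the members' counts, not corrected for gene length, FASN took 50.8%, 42.8% and 51.7% in UNC1999, against 37.0% and 39.0% in DMSO. ACLY took 23.5%, 25.3% and 23.2% in UNC1999, against 31.7% and 30.3% in DMSO. The count ratio of FASN to ACLY, which does not depend on library scaling, was 2.17, 1.69 and 2.22 in UNC1999, against 1.17 and 1.29 in DMSO. Likewise FASN to SCD was 4.46, 2.96 and 4.57 in UNC1999, against 2.22 and 2.50 in DMSO, and ELOVL6 to SCD was 0.0918, 0.0781 and 0.0892 in UNC1999, against 0.0306 and 0.0399 in DMSO. UNC1999 was above DMSO in every library for each of these 3 ratios. Each ratio sets a member called higher over one called lower in the same libraries, so this separation is no evidence beyond those calls. The same holds for the shares of FASN and ACLY. The exact two-sided permutation p was 0.2 for each ratio, the smallest this design allows, so that test cannot decide. Library scaling cancels in these ratios, but the trend with GC content does not. From the fitted values, the log2 change of FASN to ACLY was 0.73 without offsets and 0.09 with them, and neither gene was called with offsets. For FASN to SCD it was 0.75 without and 0.21 with offsets, and for ELOVL6 to SCD 1.30 without and 0.79 with offsets. A ratio does not say which of its genes changed.

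Other genes of the same pathway also went in both directions, as did tested genes at large. Of all tested genes 15.7% were called higher and 19.5% lower (14.6% and 18.9% with offsets). Counts of 17 among the 28 listed genes sufficed for testing: 5 were higher, 3 lower and 9 not called, with a median log2 fold change of -0.06; with offsets 4 were higher and 3 lower. SLC25A1, the carrier that exports citrate from mitochondria for ACLY, rose (0.42 ± 0.12 SE, edgeR adjusted p = 0.00561; 0.28 with offsets), with 70.1, 58.3 and 68.6 CPM in UNC1999, against 45.1 and 52.8 CPM in DMSO. Leaving out DMSO replicate 1 ended the call of SLC25A1 (edgeR adjusted p = 0.192). Of the other genes of the elongation cycle, the dehydratase genes HACD2 (0.54) and HACD3 (0.36) and the reductase gene TECR (0.32, all log2 fold changes) rose and kept their calls with offsets (0.27, 0.26 and 0.27). HACD2 lost its call without DMSO replicate 2, HACD3 without either DMSO library, and TECR when any library other than UNC1999 replicate 2 was left out. ELOVL4, the elongase of very long chains, was lower (-0.39, edgeR adjusted p = 0.044; -0.69 with offsets), a call lost when any library other than UNC1999 replicate 2 was left out. HSD17B12, the ketoreductase gene of the cycle, with 9 to 15 counts in UNC1999 and 13 and 17 in DMSO, was not called (-0.52, edgeR adjusted p = 0.325; -0.75 with offsets), and neither was the dehydratase gene HACD4 (0.36, edgeR adjusted p = 0.354; -0.16 with offsets). MID1IP1, which promotes polymerisation of acetyl-CoA carboxylase, fell (-0.39; -0.26 with offsets; edgeR adjusted p = 0.0751 without DMSO replicate 2).

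The acyl-CoA synthetases split as well. ACSL4, which prefers arachidonate, rose with ACSL3 (0.60 ± 0.12 SE, edgeR adjusted p = 0.000109), but like ACSL3 was not called with offsets (0.17, edgeR adjusted p = 0.119). The ACSL3 to ACSL4 count ratio was 0.581, 0.586 and 0.567 in UNC1999, against 0.688 and 0.598 in DMSO. ACSL1 fell (-0.45 ± 0.11 SE, edgeR adjusted p = 0.00131; -0.36 with offsets; edgeR adjusted p = 0.0719 without DMSO replicate 1). The remaining 11 genes of the list had too few counts to be tested, among them ACACB and ACSS2, and 5 of them, such as ME1 and ELOVL2, were listed at 0 in every library. Given the region around ACACA, a 0 in this table does not show that a gene is silent.

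Of the regulators of lipogenesis, 21 of 23 were tested, 5 were higher, 4 lower and 12 not called, with a median log2 fold change of 0.04. With offsets 5 were higher and 2 lower. The shares over all tested genes were 15.7% higher and 19.5% lower, and 14.6% and 18.9% with offsets. SREBF1, which encodes the SREBP that acts mainly on fatty acid genes, had 18.1, 15.3 and 18.0 CPM in UNC1999, against 14.2 and 13.6 CPM in DMSO. Each UNC1999 library was above both DMSO libraries, but the log2 fold change of 0.30 ± 0.15 (SE) missed the threshold (edgeR adjusted p = 0.115). SREBF2, the factor of sterol genes, had 0.08 ± 0.11 (edgeR adjusted p = 0.64), INSIG1 -0.18 ± 0.11 (edgeR adjusted p = 0.212) and INSIG2 0.02 ± 0.19 (log2, SE; edgeR adjusted p = 0.952); the INSIG proteins hold SREBPs in the endoplasmic reticulum. SCAP, which escorts SREBPs to the Golgi, was higher (0.37 ± 0.12 SE, edgeR adjusted p = 0.0145; 0.22 with offsets), a call that either DMSO library or UNC1999 replicate 3, when left out, ended. The 2 proteases that cut SREBPs in the Golgi moved in opposite directions. MBTPS1 fell (-0.59 ± 0.11 SE, edgeR adjusted p = 6.01e-05; -0.28 with offsets) and MBTPS2 rose (0.80 ± 0.17 SE, edgeR adjusted p = 0.000382; 0.41 with offsets). PRKAA1, a catalytic subunit gene of AMP-activated kinase, which phosphorylates and inhibits acetyl-CoA carboxylase, rose (0.88; 0.46 with offsets), as did FBXW7, whose ubiquitin ligase targets active SREBPs for degradation (0.58; 0.67 with offsets). These 4 calls held with each library left out in turn. The other called regulators included NFYA, a subunit gene of NF-Y, which was higher (0.37, and 0.47 with offsets). SP1 (-0.44, and -0.51 with offsets) and MLX (-0.32) were lower. NFYA lost its call without DMSO replicate 2 and SP1 without DMSO replicate 1. MLX lost its call when any library other than UNC1999 replicate 2 was left out, and with offsets (0.03, edgeR adjusted p = 0.748).

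Among sterol synthesis and uptake genes, the other targets of SREBPs, 19 of 20 were tested. Of these 8 were higher, 3 lower and 8 not called, with a median log2 fold change of 0.18. Over all tested genes 15.7% were higher and 19.5% lower (14.6% and 18.9% with offsets). With offsets edgeR called 7 higher and 0 lower, and 0 were lower at an unadjusted p under 0.05; without offsets DESeq2 called 1 lower and limma-voom 3. STARD4, a sterol transfer protein gene, had 39.7 ± 1.36 CPM in UNC1999 and 19.0 ± 1.39 CPM in DMSO (SD), with no overlap (log2 fold change 1.06 ± 0.13 SE, edgeR adjusted p = 1.45e-07; 0.69 with offsets). MSMO1 (0.79; 0.48 with offsets) and HMGCS1 (0.63; 0.36 with offsets), enzymes of sterol synthesis, rose too, and these 3 calls held with each library left out in turn. The 3 lower genes, ACAT2, SQLE and NSDHL, were not called with offsets.

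Genes of fatty acid oxidation and of glycerolipid synthesis and storage were called in both directions as well. So were tested genes at large, with 15.7% higher and 19.5% lower (14.6% and 18.9% with offsets). In the fatty acid oxidation list 21 of 23 were tested, 1 was higher, 4 lower and 16 not called, with a median log2 fold change of -0.04. With offsets edgeR called 0 higher (2 at an unadjusted p under 0.05) and 4 lower, and without offsets DESeq2 called 0 higher and limma-voom 1. HADHA (-0.70; -0.33 with offsets) and HADHB (-0.47; -0.21 with offsets), the subunits of the mitochondrial trifunctional protein, and the thiolase gene ACAA2 (-0.61; -0.44 with offsets) fell, and these 3 calls held with each library left out in turn. CPT2 fell as well (-0.53), a call that ended when DMSO replicate 1 was left out (edgeR adjusted p = 0.109) and with offsets (-0.19). ECHS1 was called lower only with offsets (-0.20, edgeR adjusted p = 0.0238), at -0.19 without them (edgeR adjusted p = 0.182). The 1 gene called higher, EHHADH of the peroxisomal pathway (0.79), lost its call without DMSO replicate 1 and with offsets. CPT1A, the partner of CPT2 at the outer membrane, was listed at 0 in every library, which does not show that it is silent. In the glycerolipid list 18 of 23 were tested, 2 were higher, 4 lower and 12 not called. With offsets the counts were the same but the higher genes were not (medians 0.06 without and 0.08 with offsets). PLIN2, the coat protein of lipid droplets, had 4.52, 5.23 and 4.78 CPM in UNC1999, against 10.7 and 9.87 CPM in DMSO (log2 fold change -1.08 ± 0.19 SE, edgeR adjusted p = 3.21e-05; -0.71 with offsets). The phosphatidate phosphatase gene LPIN2 (-0.68; -0.46 with offsets) and the acyltransferase gene GPAT4 (-0.49; -0.30 with offsets) fell. GPAM, the mitochondrial glycerol-phosphate acyltransferase gene, rose (0.73; 0.40, edgeR adjusted p = 0.0534, with offsets). These 4 calls held with each library left out in turn. The acyltransferase genes AGPAT2, which was higher, and AGPAT3, which was lower, were the other called genes of that list without offsets. With offsets LPCAT4 was called higher (0.26, edgeR adjusted p = 0.00503) and GPAM was not. Without offsets LPCAT4 was not called (0.12, edgeR adjusted p = 0.446).

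**Figure D5:**
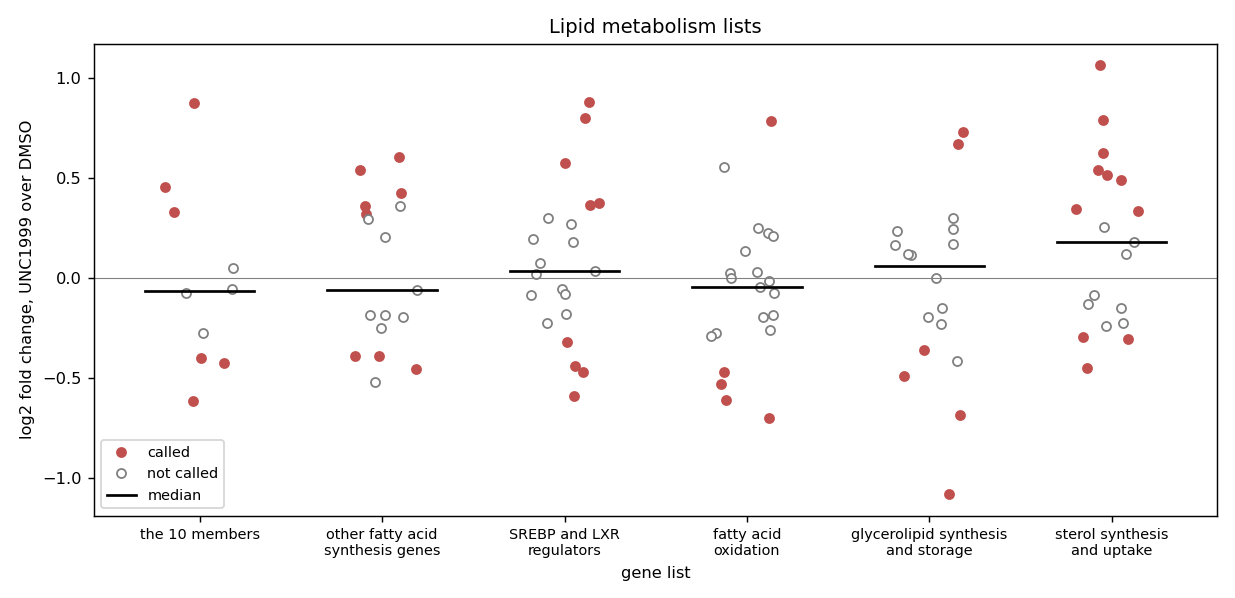
The vertical axis is the log2 fold change of UNC1999 over DMSO without offsets for the tested genes of each list (horizontal axis; horizontal jitter is random), with called genes filled and the list median as a line. Every list holds called genes on both sides of 0, as do all tested genes (15.7% higher and 19.5% lower). The sterol list has the highest median, 0.18, and the members' median is -0.07.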

How the data were processed

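Total RNA (Trizol) was turned into Illumina libraries with an NEB kit, per the labels. Values are raw counts by gene symbol, as deposited by the authors. Among the tools in the submitters' processing notes are STAR 2.7.9 and HTSeq 0.13.5, besides fastp and edgeR 3.34.0, with build hg19. No source used here gives the annotation, the strand setting or the treatment of reads with several matches. The table has 222 symbols on more than 1 row, none a member.

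Counts were filtered (filterByExpr) and fitted with edgeR 4.0.16 in R 4.3.3 (TMM, quasi-likelihood F-test, all 5 libraries, no block, threshold 0.05). A count of 0 allows up to 3 counts, 0.327 to 0.372 CPM; such floors cover counting error only. GC content, length and positions came from GENCODE 29 on GRCh38, with no conversion from hg19; 11019 tested genes (84.3%) had them. Offsets were natural splines (6 degrees of freedom in GC content, 4 in log2 length) fitted to how each library departed from the average library. Alternatives were other scaling, filters and dispersion, DESeq2 1.42.0, limma 3.58.1 (voom), a replicate block and each library left out. Only the main fit was tested on simulated counts, which held no trend with GC content or length, unlike these data. The offsets and the other alternatives were not tested in this way.

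Members and lists were chosen with earlier results of these data known. All members were named; from other lists, the 4 smallest p, every called gene of the remaining pathway, and SREBF1, SREBF2, SCAP, INSIG1 and INSIG2. Some genes that this rule would name are not reported here. Genes named beyond this (among them genes in the ACACA region, markers, untested genes, lower sterol genes and genes called only with offsets) were chosen after their values were seen.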

Additional observations from a re-analysis of the deposited data

How the results depend on the processing

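ELOVL6 kept its direction and call in all 18 alternatives and SCD in 17; ACLY and FADS1 kept theirs in 14, ACSL3 in 13 and FASN in 10. The members called numbered 3 higher and 3 lower, and 1 higher with GC and length offsets, with GC offsets without length (added after the data were seen), and with offsets plus the replicate block, where 1 was lower. With 1 library left out they ranged from 1 to 3 higher and 0 to 3 lower; the fit without DMSO replicate 1 left 1 higher and 0 lower (3 and 1 at an unadjusted p under 0.05), and that without DMSO replicate 2 left 1 higher. Where the sign differed from the main fit, the value was small. ACACA had -0.048 without DMSO replicate 2, but 0.15 without DMSO replicate 1 and up to 0.36 with GC offsets only. FASN had -0.026 with offsets and -0.035 with offsets and block. ELOVL5 had 0.031 without normalization factors. ELOVL1 had 0.049 without factors, 0.014 with upper-quartile factors, 0.14 with offsets and 0.14 with offsets and block. It also had 0.11 with GC offsets only and 0.034 without DMSO replicate 1, and reached -0.15 without DMSO replicate 2. The cause of these changes was not tested.

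Over all genes, calls numbered 1217 higher and 1688 lower with offsets and block, against 2057 and 2546 without, and with 1 library left out ranged from 1158 to 2862 higher and 1367 to 3030 lower. Lists that moved were, for other pathway genes, 3 higher with offsets and block and 2 with GC offsets only; for regulators, 2 lower with offsets, 2 with offsets and block and 2 with GC offsets only. Fatty acid oxidation had 3 higher without factors, 2 with upper-quartile factors, 0 with the stricter filter (1 CPM or more in at least 2 libraries, and 50 counts on average), 0 in DESeq2, 0 with each kind of offsets, and 2 lower with offsets and block. Glycerolipid genes had 4 higher without factors. Sterol genes had 1 lower with DESeq2 size factors, without factors, with upper-quartile factors, without a filter, with the stricter filter, with the block and in DESeq2, and 0 with each kind of offsets. With 1 library left out the lists ranged from 2 to 5 higher and 1 to 4 lower (other pathway), 3 to 8 and 1 to 5 (regulators), 0 to 3 and 3 to 6 (oxidation), 2 to 6 and 3 to 5 (glycerolipid), and 4 to 11 and 1 to 4 (sterol).

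The replicate numbers are not said to pair the samples, and deviations from the group means of libraries with the same number correlated at 0.0658 and 0.0381. A replicate block on the 4 libraries numbered 1 and 2 ended the call of FASN (0.24, edgeR adjusted p = 0.178) and of no other member; those 4 libraries lack UNC1999 replicate 3. ACACA did not pass the stricter filter and has no value there. Only 2 DMSO libraries set the spread of that group, and fits without one of them assume that the other varies like the UNC1999 libraries.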
